A study of Mus musculus with 4 samples.

Results

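The 10 genes described here, *Cdkn1a*, *Mdm2*, *Bax*, *Ccng1*, *Phlda3*, *Trp53inp1*, *Gdf15*, *Bbc3*, *Zmat3* and *Aen*, are direct transcriptional targets of p53. They were taken by symbol from the deposited count table, where they are 10 of 49315 genes. RNA came from group 2 innate lymphoid cells (ILC2s), sorted from lungs of C57BL/6 wild-type (WT) mice and of congenic mice null for *Hps1*, a gene needed to build lysosome-related organelles. The sort kept cells that were Lineage-, which leaves out cells with CD3, CD11b, B220, Ly76, Ly6G or Ly6C, and positive for Thy1.2, ICOS and T1/ST2, and all groups were then grown with IL-2 before their RNA was taken. The 4 groups were WT mice given PBS (PBS-WT), Hps1-/- mice given PBS (PBS-HPS1), WT mice given bleomycin (BLEO-WT) and Hps1-/- mice given bleomycin (BLEO-HPS1). Bleomycin is a DNA-breaking drug used to induce lung fibrosis. The study describes an intratracheal and an intraperitoneal bleomycin model. The route, dose, day and age of the animals behind these libraries, and the number of mice pooled in each, are not given in the sources used here. Each group has 1 library, made from 22405, 38873, 84166 and 128647 cells in the order above, so no difference could be tested against the spread between animals and no p-value is given.

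p53 is a transcription factor that is held at a low level by Mdm2, which marks it for degradation, and is released when kinases such as Atm sense broken DNA. It then binds a response element made of a pair of decamers and switches on genes that arrest the cell cycle, kill the cell, repair damage or, as with *Mdm2*, end the response. In lung, bleomycin breaks DNA in the cells it reaches, and *Cdkn1a*, *Mdm2*, *Bax* and *Ccng1* are among the genes by which a p53 response is usually read.

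The promoters of the genes show how close to the transcription start p53 could bind. RefSeq promoter windows on GRCm38.p6, 300 bases long with 250 before the start and 50 after it, were given for 8 of the 10 genes, 13 windows in all, with none for *Trp53inp1* and *Zmat3*. Both strands were searched for the p53 decamer, a palindromic motif of 10 letters, alone or as a pair with a spacer of 0 to 13 bases. The motif's fixed C and G had to match in each decamer, and mismatches were counted at its other letters. In 3 genes a window held a pair with at most 2 mismatches over both decamers. For each, the pair with the fewest mismatches at any allowed spacer is printed on the gene's strand, with its decamers in capitals. Other pairs that overlap the same stretch are not marked, so the capitals need not be the element that p53 uses. Each printed stretch holds the pair and 12 bases on either side. The *Cdkn1a* stretch is chr17:29090894-29090949 on the plus strand. On the minus strand, the *Ccng1* stretch is chr11:40755450-40755493 and the *Bax* stretch chr7:45467067-45467111.
Cdkn1a: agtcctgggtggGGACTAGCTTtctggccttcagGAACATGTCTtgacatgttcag
Ccng1: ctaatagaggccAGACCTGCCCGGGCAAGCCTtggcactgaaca
Bax: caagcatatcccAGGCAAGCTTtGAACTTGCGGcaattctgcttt

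The *Cdkn1a* pair had 0 mismatches and a spacer of 12 bases. It ended 42 bases before the nearer *Cdkn1a* start site and 2832 bases before the farther one. A pair with 0 mismatches was in 24 of 32851 windows (0.0731%). The *Ccng1* pair had 1 mismatch and no spacer, and lay 176 bases before the start, a quality met by 0.627% of windows. In *Bax* there were 2 mismatches and a spacer of 1 base, 181 bases before the start, a quality met by 4.09% of windows. *Mdm2* and *Aen* held an exact decamer without such a partner, shown with the decamer in capitals because it matches the motif without a mismatch. The printed stretches, decamer and flanks, are chr10:117710927-117710952 on the minus strand and chr7:78895929-78895954 on the plus strand. The *Mdm2* decamer lies 177 bases before the start. The *Aen* decamer ends 112 bases before the farther of the *Aen* start sites and lies just after the nearer one.
Mdm2: tcggatagGAACTTGCCTagcgacca
Aen: ccgaagccGGGCTTGTCCgggcaagg

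An exact decamer was in a window of 5 of the 8 genes, which have 13 windows, and in 8.36% of all windows. The first share counts genes and the second windows, so they are not alike in kind. No exact decamer was in the windows of *Phlda3*, *Gdf15* or *Bbc3*, which says only that these letters are not in this stretch, since p53 also binds within introns and farther away. A match is a description of the sequence and not evidence that p53 was bound in these cells.

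All 10 genes were well counted, with 1116 to 55039 reads in every library, and all 10 were among the 14840 genes that reached 1 CPM in at least 1 library. CPM is the read count relative to the size of its library, scaled by the trimmed mean of M values (TMM). In length-adjusted levels, CPM per kilobase of the longest transcript, *Cdkn1a* was first in every library, at 132 and 157 in WT and Hps1-/- mice given PBS and 337 and 290 in those given bleomycin, the order used below. It encodes p21, the inhibitor of cyclin-dependent kinases (CDKs) that carries out p53's cell cycle arrest. *Bax*, which encodes a pore-forming killer of mitochondria, was second in every library, at 96.9, 81.9, 152 and 222 CPM per kilobase. *Zmat3*, an RNA-binding protein gene, was lowest in every library, at 1.84 to 2.89 CPM per kilobase, and the other 7 lay between 3.53 and 57.7. The summed level of the 10 genes, in the same order, was 808, 854, 1313 and 1182 CPM. *Cdkn1a* made up 34%, 38.3%, 53.5% and 51.1% of that sum, and without it the sums were 533, 527, 611 and 578 CPM. The higher sums with bleomycin were therefore mostly *Cdkn1a*.

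**Figure D1:**
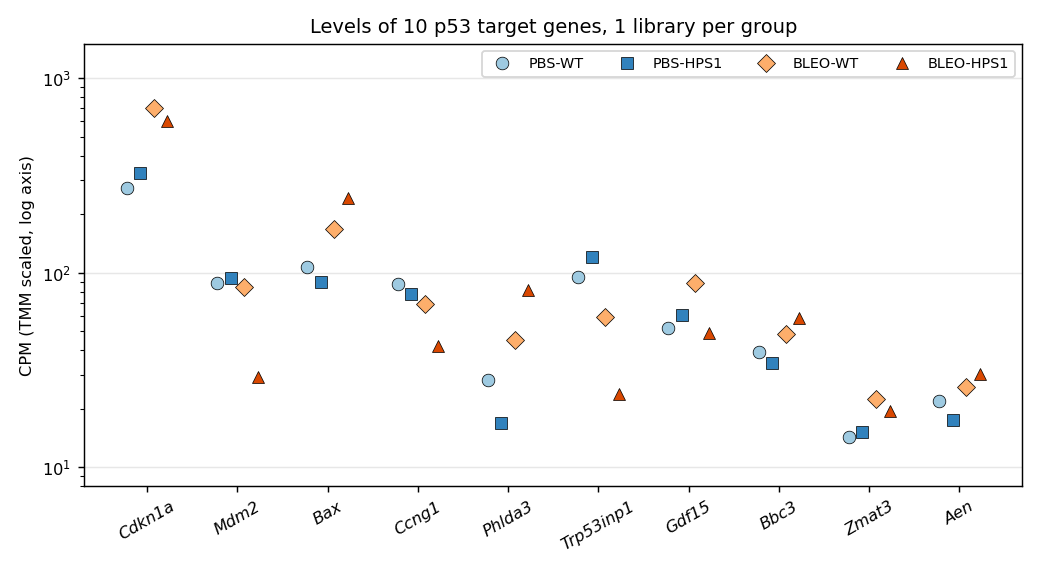
Level of each of the 10 p53 target genes in CPM (log axis) in the 4 libraries, each point 1 library with no replicate. *Cdkn1a* is highest of the 10 in every library, and *Mdm2*, *Ccng1* and *Trp53inp1* have their lowest level in BLEO-HPS1 where *Bax*, *Phlda3*, *Bbc3* and *Aen* have their highest.

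Some facts of the libraries bear on these levels. Totals were 72513619 to 87638154 reads, so 3 reads correspond to between 0.0303 and 0.0475 CPM. Counting error is small beside every level of the 10 genes, but not beside the lowest levels given for other genes. *Hps1* itself was at 38.3 and 16.6 CPM in WT and Hps1-/- mice given PBS and at 48.4 and 21.3 CPM in those given bleomycin, lower in both Hps1-/- libraries but not absent. Of 16 ILC2 markers 15 were found, all but *Areg*, none at 0 in any library, with summed levels of 776, 701, 968 and 1057 CPM. Without *Arg1*, at 8.34, 4.59, 387 and 257 CPM, the sums were 768, 696, 581 and 799.9. Of these sums *Thy1* gave 307, 206, 224 and 551 CPM. Over the 14 compared markers, *Arg1* included, the median log2 ratio with bleomycin was -0.36 in WT and -0.64 in Hps1-/- mice. Once the trends with base composition and transcript length were taken out by the fit described below, these medians were -0.33 and 0.12. The ILC2 cytokine genes *Il5* and *Il13* were at 0.293 to 1.06 and 0.269 to 1.43 CPM, on 23 to 105 and 17 to 142 reads. Monocytes and many macrophages carry CD11b or Ly6C, which the sort's Lineage gate removes, and the 9 of their markers found, also none at 0, summed to 11900, 7915, 16931 and 15483 CPM, of which *Lyz2* gave 6083 to 13145, and the 10 fibroblast markers to 240, 374, 629 and 2972 CPM. Neutrophil markers summed to 452 to 1579 CPM, endothelial to 748 to 1063, B and plasma cell to 386 to 689 and T cell to 587 to 1256. The sort's label is thus only partly borne out by the markers, the macrophage and fibroblast sums were higher with bleomycin in both genotypes, and their part in the levels of the p53 targets was not tested.

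The log2 ratios between libraries also followed base composition. Across 11133 genes, Spearman's rho of the bleomycin log2 ratio with transcript GC content was 0.485 in WT and 0.602 in Hps1-/- mice, and with transcript length it was -0.256 and -0.517. The longest transcripts of the 10 p53 targets run from 38.8% GC (*Trp53inp1*) to 65.2% (*Bbc3*) and from 1100 (*Bax*) to 7797 bases (*Zmat3*). Over the 10 genes, which share these libraries, rho with GC content was 0.612 and 0.758. Each log2 ratio is therefore given as counted and also as a residual of a loess fit on GC content and length with the median of the fit added back, called corrected. For genotype, rho with GC content was -0.0726 between the PBS libraries and 0.609 between the bleomycin libraries. The dependence on GC content thus went with bleomycin and was strongest where BLEO-HPS1 entered. With length, rho for genotype was 0.429 between the PBS libraries and -0.493 between the bleomycin libraries. A dependence on length was therefore present without bleomycin as well. A technical and a biological part of these dependences cannot be told apart in these libraries.

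**Figure D2:**
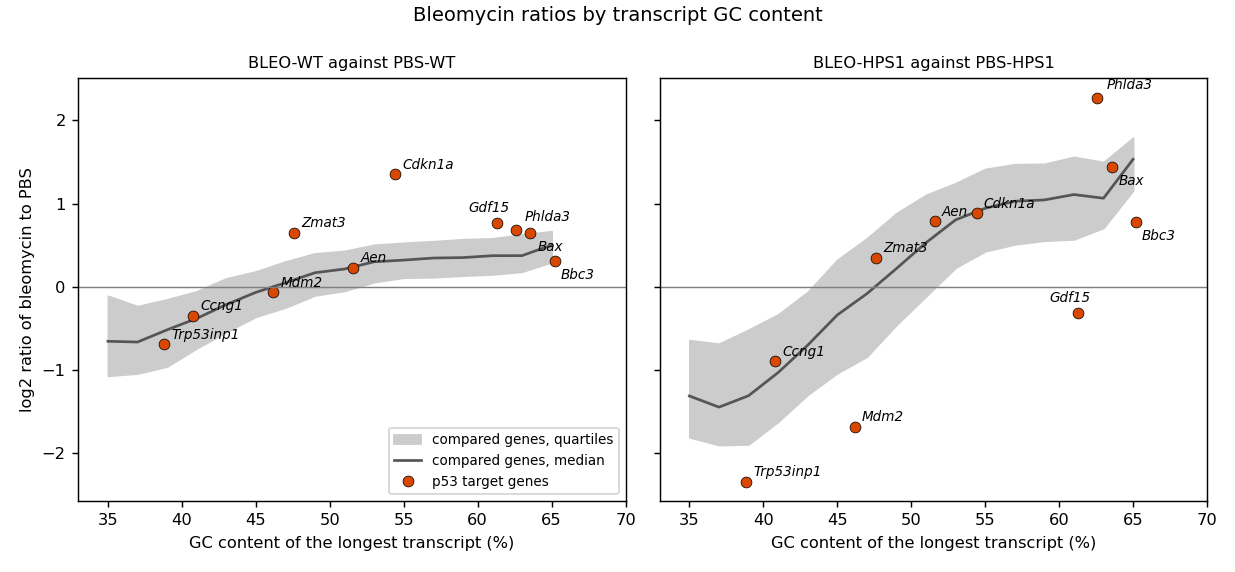
Log2 ratio of bleomycin to PBS (y axis) against GC content of the longest transcript in percent (x axis) in WT (left) and Hps1-/- (right) cells, with the median and quartiles of all compared genes as line and band and the 10 p53 targets as points. In Hps1-/- cells *Cdkn1a* (log2 ratio 0.88) and *Aen* (0.79) lie near the line while *Mdm2* (-1.68), *Trp53inp1* (-2.34) and *Gdf15* (-0.32) lie under the band and *Phlda3* (2.27) above it.

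In WT mice, bleomycin went with a higher level of the arrest gene *Cdkn1a* and with smaller differences in the other targets. *Cdkn1a* (ENSMUSG00000023067, chr17:29090976-29100727, plus strand of GRCm38) was at 274 CPM in PBS-WT and 702 in BLEO-WT, a ratio of 2.56-fold and a log2 ratio of 1.35 (95% exact counting interval 1.33 to 1.38). The corrected log2 ratio was 1.19. It was the only one of the 10 at least 2-fold apart, as counted and corrected. Of all compared genes 13.5% were that far apart, 5.28% higher and 8.22% lower, and after the correction 5.52% were higher and 5.62% lower. In bulk RNA, more cells of a type that expresses a gene and more RNA per cell cannot be told apart. Among all compared genes, *Cdkn1a* stood at percentile 97.3 of this ratio.

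4 of the other genes had log2 ratios between 0.65 and 0.77 in WT mice. *Gdf15* (ENSMUSG00000038508, chr8:70629393-70632456, minus strand), which encodes a secreted stress hormone of the TGF-β superfamily, was at 52.3 CPM with PBS and 89.2 with bleomycin, a log2 ratio of 0.77 (0.72 to 0.83) and 0.53 corrected. *Phlda3* (ENSMUSG00000041801, chr1:135766119-135769136, plus strand), whose product restrains Akt signalling at the membrane, was at 28.0 and 45.1 CPM, 0.69 (0.61 to 0.77) and 0.44 corrected. *Bax* (ENSMUSG00000003873, chr7:45461697-45466898, minus strand) was at 107 and 167 CPM, 0.65 (0.61 to 0.69) and 0.37 corrected. These 3 have GC-rich transcripts, and their corrected ratios were smaller. *Zmat3* (ENSMUSG00000027663, chr3:32334792-32366014, minus strand) was at 14.3 and 22.5 CPM, 0.65 (0.54 to 0.76), and its corrected value was larger, 0.94.

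The remaining genes were closer to even or lower with bleomycin in WT mice. *Bbc3* (ENSMUSG00000002083, chr7:16308393-16318205, plus strand), which encodes the BH3-only killer Puma, was at 39.2 and 48.7 CPM, a log2 ratio of 0.31 (0.24 to 0.38) and 0.06 corrected. *Aen* (ENSMUSG00000030609, chr7:78895854-78911209, plus strand), an apoptosis-enhancing nuclease gene, was at 22.0 and 25.9 CPM, 0.23 (0.14 to 0.33) and 0.21 corrected, though with scaling by total counts alone it was -0.03. *Mdm2* (ENSMUSG00000020184, chr10:117688875-117710758, minus strand), the gene of p53's own inhibitor, was at 88.4 and 84.4 CPM, -0.07 (-0.12 to -0.02), close to even where *Cdkn1a* was higher. *Ccng1* (ENSMUSG00000020326, chr11:40748552-40755311, minus strand), which encodes cyclin G1, was at 87.3 and 68.8 CPM, -0.34 (-0.40 to -0.29). *Trp53inp1* (ENSMUSG00000028211, chr4:11156431-11174379, plus strand), which encodes a p53-interacting stress protein, was at 95.4 and 59.1 CPM, -0.69 (-0.74 to -0.64). The last 3 have the transcripts of lowest GC content among the 10, and their corrected ratios were 0.06 for *Mdm2*, 0.12 for *Ccng1* and 0.07 for *Trp53inp1*, on the other side of 0.

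As counted, 7 of the 10 genes were above 0 in WT mice, as were 56.6% of all compared genes, and after the correction all 10 were, as were 62.8% of all genes. Above the median of all genes lay 7 of the 10 as counted and 6 after the correction. The median log2 ratio of the 10 was 0.48 beside 0.09 for all genes, and 0.29 beside 0.15 after the correction.

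In Hps1-/- mice the same genes spread much farther apart, in both directions. With bleomycin *Phlda3* and *Bax* were higher by 2-fold or more, and *Mdm2* and *Trp53inp1* lower by that much, 4 of the 10. That share is near the background, since 45.9% of all compared genes were at least 2-fold apart in this pair of libraries, 26.2% higher and 19.6% lower. With scaling by total counts the split was 1 higher and 3 lower.

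*Phlda3* was at 16.8 CPM in PBS-HPS1 and 81.6 in BLEO-HPS1, 4.84-fold higher and a log2 ratio of 2.27 (2.20 to 2.36). Its corrected log2 ratio was 1.15, still past 2-fold. *Bax* was at 90.1 and 244 CPM, 2.71-fold higher and 1.44 (1.40 to 1.47), but only 0.19 corrected and 0.79 with total counts. *Cdkn1a* was at 327 and 604 CPM, 1.85-fold higher and 0.88 (0.86 to 0.91), and 0.13 corrected. So the p21 gene was higher with bleomycin in both genotypes, less so in Hps1-/- mice, and in Hps1-/- mice it lay where other genes of its GC content lay.

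Lower levels with bleomycin in Hps1-/- mice were counted for *Mdm2*, *Trp53inp1* and *Ccng1*, beside *Gdf15*. *Mdm2* was at 94.0 CPM in PBS-HPS1 and 29.3 in BLEO-HPS1, 3.20-fold lower and a log2 ratio of -1.68 (-1.75 to -1.61), and -1.33 corrected. *Trp53inp1* was at 120 and 23.8 CPM, 5.06-fold lower and -2.34 (-2.42 to -2.26), and -0.56 corrected, no longer past 2-fold. *Ccng1* was at 77.9 and 41.9 CPM, -0.89 (-0.96 to -0.83), with 0.23 corrected and -1.54 with total counts. Of these 3 genes, *Mdm2* was the one that was at least 2-fold lower with and without the correction.

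The other 4 genes were within 2-fold as counted. *Bbc3* was at 34.4 CPM with PBS and 58.9 with bleomycin, a log2 ratio of 0.78 (0.71 to 0.84) and -0.22 corrected. *Aen* was at 17.5 and 30.3 CPM, 0.79 (0.70 to 0.89) and 0.91 corrected. *Gdf15* was at 60.9 and 48.9 CPM, -0.32 (-0.38 to -0.25), lower with bleomycin although its transcript is GC-rich, and -1.40 corrected. *Zmat3* was at 15.2 and 19.4 CPM, 0.35 (0.24 to 0.46), -0.29 with total counts and 1.46 corrected. After the correction, *Phlda3* and *Zmat3* were the 2 genes past 2-fold upward and *Mdm2* and *Gdf15* the 2 past it downward, against 17.3% and 8.86% of all compared genes.

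**Figure D3:**
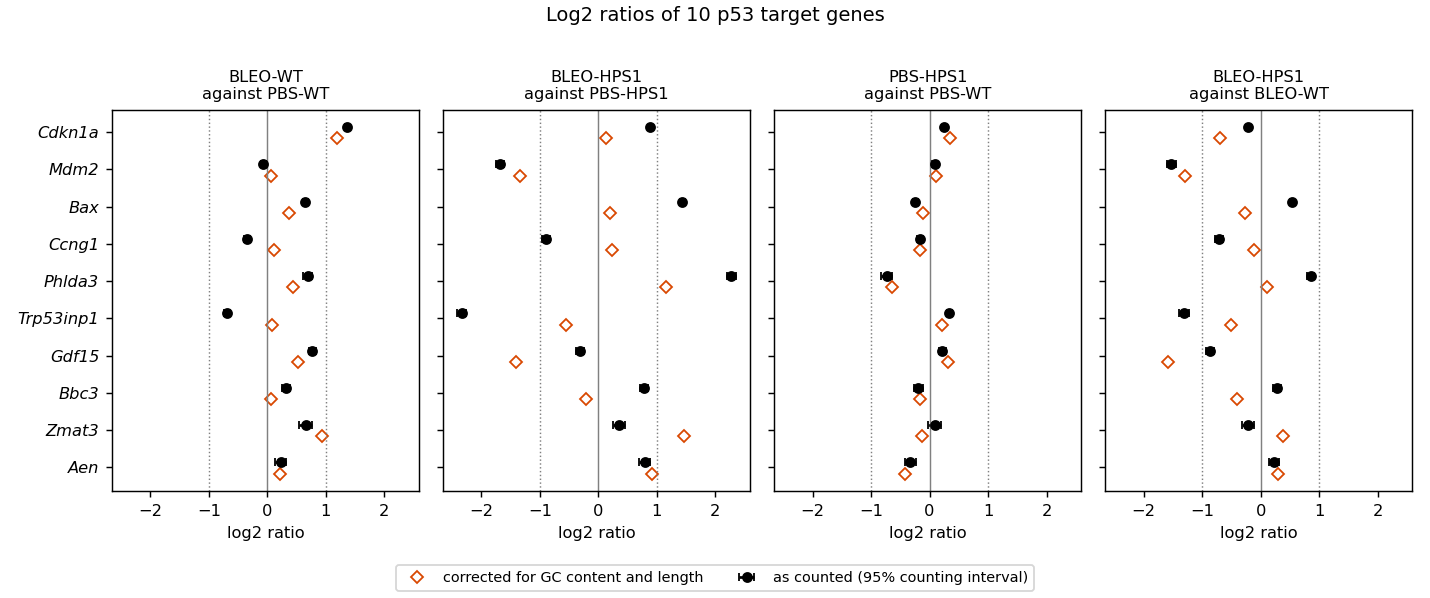
Log2 ratios of the 10 p53 target genes (x axis) in the 4 comparisons of a pair of libraries, as counted with the 95% exact counting interval (filled) and corrected for GC content and length (open), with dotted lines at 2-fold. *Cdkn1a* is past 2-fold in WT mice both ways, at 1.35 and 1.19, and *Mdm2* is past it in both comparisons that hold the BLEO-HPS1 library.

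The median of the 10 genes in Hps1-/- mice was 0.56 as counted, beside 0.25 for all genes, and 0.16 beside 0.27 after the correction. Their range was 4.61 log2 units as counted against 2.04 in WT mice, and 2.86 against 1.13 after the correction. All compared genes spread wider too, with an interquartile range of 1.76 against 0.74 as counted and 1.04 against 0.59 after the correction. Split by GC content after their values were seen, the 4 genes over 60% (*Bax*, *Phlda3*, *Gdf15* and *Bbc3*) had a median of 1.11 and the 4 under 50% (*Mdm2*, *Ccng1*, *Trp53inp1* and *Zmat3*) of -1.29, and after the correction these were -0.01 and -0.16.

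Between the PBS libraries the genes differed little by genotype. None of the 10 was at least 2-fold apart, where 5.27% of all compared genes were, 2.16% higher and 3.11% lower in Hps1-/- mice. None was so after the correction either, beside 2.3% higher and 2.82% lower. The largest difference was that of *Phlda3*, at 28.0 CPM in PBS-WT and 16.8 in PBS-HPS1, a log2 ratio of -0.73 (-0.83 to -0.64) and -0.64 corrected. *Trp53inp1* was next, at 0.34, with 0.22 corrected, followed by *Aen* at -0.33, and the other 7 lay between -0.24 and 0.25. The interval of *Zmat3*, -0.03 to 0.20, held 0. The median of the 10 was -0.04 beside -0.19 for all genes, and -0.13 beside -0.20 after the correction.

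With bleomycin, *Mdm2* and *Trp53inp1* were at least 2-fold lower in Hps1-/- than in WT mice and no gene was as much higher, where 17% of all compared genes were that far apart, 10.3% lower and 6.72% higher. *Mdm2* was at 84.4 CPM in BLEO-WT and 29.3 in BLEO-HPS1, a log2 ratio of -1.52 (-1.60 to -1.45), and -1.29 corrected. *Trp53inp1* was at 59.1 and 23.8 CPM, -1.31 (-1.40 to -1.23), and -0.50 corrected. Neither PBS library was as low for these genes as BLEO-HPS1. *Gdf15* was at 89.2 and 48.9 CPM, -0.87 (-0.93 to -0.81), and -1.58 corrected, which put it past 2-fold with *Mdm2*. After the correction 4.7% of all compared genes were lower by that much and 5.2% higher.

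The other 7 genes were less far apart between the bleomycin libraries. *Phlda3* was at 45.1 and 81.6 CPM, 0.85 (0.79 to 0.92), and *Bax* at 167 and 244 CPM, 0.54 (0.51 to 0.58), which were 0.12 and -0.26 corrected. *Ccng1* was at -0.72 and -0.12 corrected, and *Cdkn1a* at -0.22 (-0.24 to -0.20) and -0.70 corrected. *Bbc3* and *Aen* were at 0.27 and 0.23, and *Zmat3* at -0.21, with -0.40, 0.30 and 0.39 corrected. The median of the 10 was -0.21 beside -0.04 for all genes, and -0.33 beside -0.06 after the correction.

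The difference of the bleomycin log2 ratios, Hps1-/- minus WT, sets both comparisons side by side. It shares all 4 libraries with them and was not tested. It was past 2-fold for *Trp53inp1* (-1.65), *Mdm2* (-1.61), *Gdf15* (-1.09) and *Phlda3* (1.59), 1 higher and 3 lower, where 27.5% of all genes were past it, 16.3% higher and 11.2% lower. After the correction it was past 2-fold for *Gdf15* (-1.93), *Mdm2* (-1.40) and *Cdkn1a* (-1.06), all lower, where 10.1% of genes were higher and 6.31% lower. *Mdm2* and *Gdf15* were thus past 2-fold both ways. Of these, *Gdf15* had opposite signs in the genotypes both as counted and corrected, higher with bleomycin in WT mice and lower in Hps1-/- mice. Among all compared genes, 20.8% had opposite signs as counted and 24.9% after the correction.

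Ratios between genes of the same library need no scaling of libraries, and they set the arms of the response against each other. With PBS there were 3.11 *Cdkn1a* reads per *Mdm2* read in WT mice (95% counting interval 3.02 to 3.19) and 3.48 in Hps1-/- mice (3.40 to 3.56). With bleomycin there were 8.31 (8.10 to 8.53) and 20.6 (19.7 to 21.6). The balance of the arrest gene to the feedback gene was highest in BLEO-HPS1, while the PBS libraries were close to each other. The transcripts differ in GC content and length, and after the correction the step from PBS-HPS1 to BLEO-HPS1 was 2.76-fold in place of 5.91-fold, and that from BLEO-WT to BLEO-HPS1 1.5-fold in place of 2.48-fold. *Phlda3* reads per *Mdm2* read were 0.317 and 0.179 with PBS and 0.535 and 2.78 with bleomycin, a step between the bleomycin libraries of 5.20-fold, and 2.65-fold corrected. *Bax* reads per *Trp53inp1* read were 1.12 and 0.749 with PBS and 2.83 and 10.3 with bleomycin. This last step is 3.62-fold as counted but 1.18-fold corrected, and that from PBS-HPS1 to BLEO-HPS1 13.7-fold and 1.68-fold corrected. Between *Bax* and *Bbc3*, both genes of cell death with GC-rich transcripts, the ratio moved less, from 2.72 and 2.62 with PBS to 3.43 and 4.14 with bleomycin.

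As counted, the 10 genes did not share a common pattern over the libraries. The highest of the 4 libraries was BLEO-HPS1 for *Bax*, *Phlda3*, *Bbc3* and *Aen*, BLEO-WT for *Cdkn1a*, *Gdf15* and *Zmat3*, PBS-HPS1 for *Mdm2* and *Trp53inp1*, and PBS-WT for *Ccng1*. By the root mean square distance of their centred log2 CPM over the 4 libraries, *Bbc3* and *Aen* were the most alike pair (0.0545). *Phlda3* and *Trp53inp1* were the least alike (1.72), and their transcripts have 62.6% and 38.8% GC. All distances here are as counted, without the correction for GC content and length. Corrected, the bleomycin log2 ratios of *Bbc3* and *Aen* were 0.06 and 0.21 in WT and -0.22 and 0.91 in Hps1-/- mice. Of all compared genes, the pattern most like that of *Cdkn1a* was that of *Rusc2*, at a distance of 0.0294, with 25.5, 31.1, 64.2 and 54.3 CPM. *Usp2*, *Nfkbid*, *Tcirg1* and *Slc6a2* followed at 0.0593 to 0.0747. The genes nearest to the mean pattern of the 10 were *Fbrsl1*, *Nf2*, *Bbs1*, *Pcnx4* and *Ttc13*, at 0.0170 to 0.0213, and none of the 10 was among either set.

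Upstream of these targets, *Trp53*, the gene of p53 itself, was level in WT mice and higher with bleomycin in Hps1-/- mice. It was at 69.7 and 70.7 CPM without and with bleomycin in WT mice and at 56.8 and 123 CPM in Hps1-/- mice, log2 ratios of 0.02 in WT and 1.12 in Hps1-/- mice, the last 0.71 corrected. *Mdm4*, whose product blocks p53 and pairs with Mdm2, was at 79.5 and 46.8 CPM in WT and at 113 and 15.4 CPM in Hps1-/- mice. Its log2 ratios with bleomycin were -0.76 in WT and -2.87 in Hps1-/- mice, and -0.23 and -1.34 corrected. Both inhibitors of p53 therefore had their lowest level in BLEO-HPS1, with *Trp53* at its highest. p53 is controlled mostly as a protein, which these counts do not measure.

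Of 23 regulators of p53, 21 were compared. In WT mice 0 of 21 were at least 2-fold apart, beside 13.5% of all genes. The 2 most abundant, the acetylase gene *Ep300* and the deubiquitinase gene *Usp7*, had log2 ratios of -0.12 and -0.21. In Hps1-/- mice 2 were higher, *Trp53* and *Cdkn2a*, and 8 were lower, among them *Mdm4*, the deacetylase gene *Sirt1* (-2.04) and the DNA damage kinase genes *Atr* (-1.85) and *Atm* (-1.83), where 26.2% of all genes were higher and 19.6% lower. The median was -0.15 in WT and -0.84 in Hps1-/- mice, and 0.02 and -0.06 after the correction. After it, 1 regulator was higher and 2 were lower in Hps1-/- mice, beside 17.3% and 8.86% of all genes. The lower ones were *Mdm4* and *Sirt1* (-1.06), while *Atr* and *Atm* were at 0.05 and 0.08. *Cop1*, a ubiquitin ligase gene for p53, was the higher one at 1.39 corrected, against -0.80 as counted, and was picked out after its values were seen. Between genotypes 0 of 21 were apart with PBS, beside 5.27% of all genes. With bleomycin 1 was higher, *Cdkn2a*, and 6 lower in Hps1-/- mice, where 6.72% and 10.3% of all genes were. After the correction none was, beside 5.2% of all genes higher and 4.7% lower.

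Of 40 other p53 targets, 38 were compared, and they too lay on both sides of even. In WT mice 4 were at least 2-fold higher with bleomycin and 2 lower, where 5.28% and 8.22% of all genes were. The higher ones included *Eda2r*, a death receptor gene at 0.231 and 1.05 CPM (18 and 82 reads), and the adenylate kinase gene *Ak1*, at 1.44 and 4.59 CPM. Both were named here after their values were seen. The others were the detoxifying hydrolase gene *Ephx1*, at 39.8 CPM in PBS-WT and 101 in BLEO-WT, and the xylulose reductase gene *Dcxr*, at 17.8 and 39.2 CPM. The lower ones were *Perp*, a gene of epithelial junctions and cell death, at 66.6 and 19.6 CPM, and *Kitl*, the stem cell factor gene, at 25 and 8.88 CPM. After the correction 3 were higher, without *Dcxr*, and 2 lower, *Perp* and *Ptprv*, a phosphatase gene at 10.3 and 5.50 CPM. Of all genes 5.52% were higher and 5.62% lower after it. The 10 epithelial markers were lower in sum as well, at 1191 and 696 CPM, of which *Sftpc* gave 816 and 343. Of the 10, 2 were at least 2-fold lower, 0 were higher and 8 lay within 2-fold, with a median log2 ratio of -0.20. Their part in the *Perp* difference was not tested.

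In Hps1-/- mice 11 of the 38 were at least 2-fold higher with bleomycin and 8 lower, and after the correction 9 and 6. Among all genes 26.2% were higher and 19.6% lower, and 17.3% and 8.86% after the correction, so as counted the list was near the background. *Ak1* was at 1.47 CPM in PBS-HPS1 and 14.8 in BLEO-HPS1, *Dcxr* at 11.9 and 63.6, *Ephx1* at 31.7 and 148, and *Rps27l*, a ribosomal protein gene that p53 induces, at 32.9 and 123. These 4 stayed at least 2-fold higher after the correction, with corrected log2 ratios of 2.56, 1.10, 1.46 and 1.55. On the low side, *Perp* was at 56.1 and 12.8 CPM, a log2 ratio of -2.13 and -2.39 corrected, and *Kitl* at 23.7 and 5.21, -2.18 and -0.42 corrected. *Pmaip1*, which encodes the BH3-only killer Noxa, was at 115 and 31.1 CPM, -1.88 and -1.15 corrected. *Rrm2b*, the p53-inducible ribonucleotide reductase gene, was at 20.5 and 5.73 CPM, -1.84 and -0.29 corrected. The median of the 38 was 0.08 in WT and -0.14 in Hps1-/- mice, and 0.16 and -0.05 after the correction.

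Between genotypes with PBS, 1 of the 38, *Eda2r* (18 reads in WT and 56 in Hps1-/-), was at least 2-fold higher and 0 lower. Among all genes 2.16% were higher and 3.11% lower. With bleomycin 2 of the 38 were higher and 6 lower in Hps1-/- mice, beside 6.72% and 10.3% of all genes. The higher ones were *Ak1* (1.69) and the peptide transporter gene *Tap1*, at 206 CPM in WT and 445 in Hps1-/- mice. The lower ones included *Pmaip1* (-1.38) and the growth arrest gene *Gadd45a*, at 56.8 and 25.5 CPM and a log2 ratio of -1.15, which was -1.57 corrected. After the correction *Ak1* was still higher, and 4 were lower, *Gadd45a*, the kinase gene *Plk3* (-1.20) and the antiproliferative genes *Btg2* (-1.12) and *Tob1* (-1.02). Of all genes 5.2% were higher and 4.7% lower after it.

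**Figure D4:**
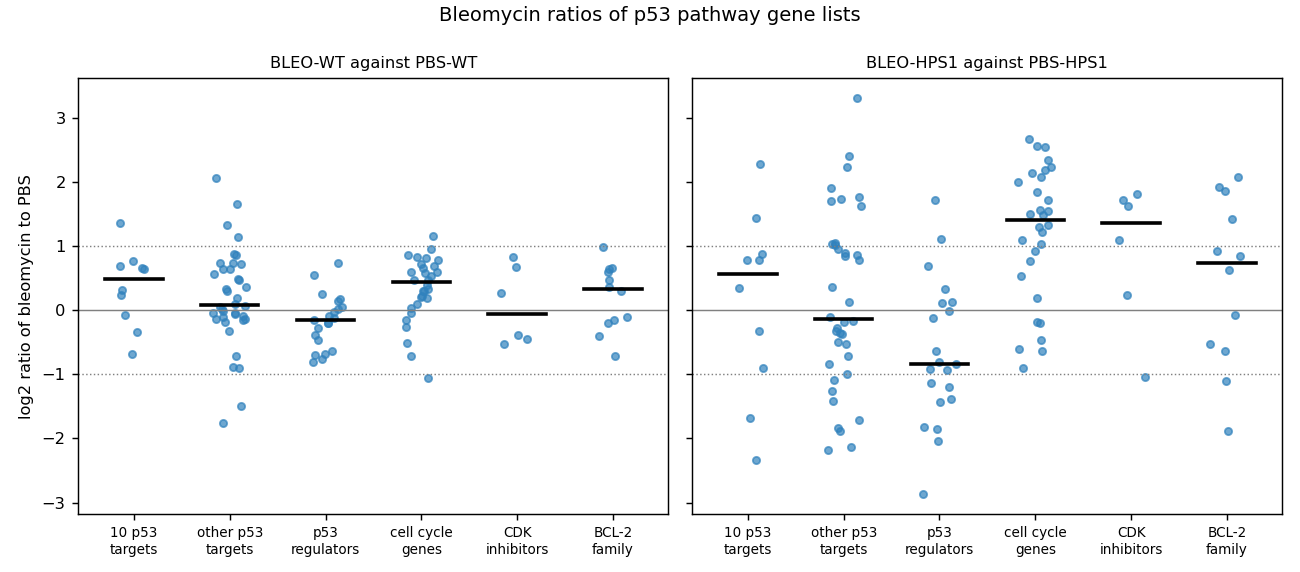
Log2 ratio of bleomycin to PBS as counted (y axis) for each compared gene of 6 lists in WT (left) and Hps1-/- (right) cells, each point 1 gene, with bars at the medians and dotted lines at 2-fold. The p53 targets spread on both sides of 0 in Hps1-/- cells, where the cell cycle genes have a median of 1.41 and the p53 regulators one of -0.84.

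Genes that p53 is known to hold down through p21 were also read. Of 30 cell cycle genes of this kind, 1 was at least 2-fold higher with bleomycin in WT mice, the cell cycle transcription factor gene *Mybl2*, at 4.81 and 10.8 CPM, and 1 was lower, the kinetochore gene *Cenpf*, at 8.53 and 4.07 CPM, which was -0.24 corrected. After the correction 2 were higher and 0 lower in WT mice, the higher ones being *Ccnb1* and *Mybl2* (1.01 and 1.02). Among all genes in this pair 5.28% were higher and 8.22% lower as counted, and 5.52% and 5.62% after the correction. In Hps1-/- mice 20 of 30 were higher and 0 lower, and after the correction 22 and 0, where 26.2% of all genes were higher as counted and 17.3% after it. In the same pair of libraries 5 of 8 T cell markers, 3 of 8 B and plasma cell markers and 9 of 10 fibroblast markers were at least 2-fold higher, and their part in the cell cycle genes was not tested. *Cdc20*, an activator of the anaphase-promoting complex, was at 9.35 CPM in PBS-HPS1 and 59.6 in BLEO-HPS1, and the mitotic kinase gene *Plk1* at 5.97 and 35.5. *Birc5*, which encodes survivin, was at 7.04 and 35.8 CPM. The list's median was 0.43 in WT and 1.41 in Hps1-/- mice, and 0.48 and 1.37 after the correction. *Cdkn1a* itself was past 2-fold in WT and not in Hps1-/- mice, and the cells were not separated by cycle stage. With bleomycin 4 of the 30 were higher in Hps1-/- than in WT mice and 0 lower, beside 6.72% and 10.3% of all genes. They were led by the replication helicase gene *Mcm5*, at 62.3 CPM in WT and 160 in Hps1-/- mice. After the correction 3 were higher and 0 lower, beside 5.2% and 4.7% of all genes. With PBS none was 2-fold apart between genotypes, where 5.27% of all genes were.

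Of 6 other inhibitors of CDKs, 0 were at least 2-fold apart in WT mice, beside 13.5% of all genes. *Cdkn1b*, the p27 gene, was at 206 and 143 CPM. With bleomycin in Hps1-/- mice 4 of the 6 were higher and 1, *Cdkn1b*, was lower, at 201 and 98.0 CPM, beside 26.2% and 19.6% of all genes. The higher ones were *Cdkn2c*, at 9.60 and 33.7 CPM, *Cdkn1c*, at 5.46 and 16.9, *Cdkn2d*, at 37.0 and 79.1, and *Cdkn2a*, at 0.555 and 1.88, which is under the level set for named genes and was named after its values were seen. After the correction 1 of them, *Cdkn2c*, was past 2-fold with a log2 ratio of 1.05, and *Cdkn1b* was at 0.08. Of all genes 17.3% were higher and 8.86% lower after it. Between genotypes 0 of 6 were apart with PBS, beside 5.27% of all genes. With bleomycin 1 was higher in Hps1-/- mice, *Cdkn2a*, beside 6.72% of all genes, and 0 after the correction.

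Beside *Bax* and *Bbc3*, 12 of 13 other genes of the BCL-2 family were compared. In WT mice 0 of 12 were at least 2-fold apart, beside 13.5% of all genes. The most abundant, the survival gene *Mcl1*, was at 1167 and 1507 CPM. In Hps1-/- mice 4 were higher and 2 lower, near the shares of all genes, 26.2% and 19.6%. *Bak1*, the partner of *Bax* in opening mitochondria, was at 56.9 and 240 CPM, a log2 ratio of 2.07 and 1.32 corrected, and the BH3-only gene *Bad* was at 16.1 and 61.2 CPM, 1.93 and 0.91 corrected. The survival gene *Bcl2l1* was higher as well, at 46.2 and 124 CPM, as was *Bok*, at 2.89 and 10.5. The survival gene *Bcl2* was lower, at 86.3 and 40.0 CPM, and so was *Pmaip1*. After the correction 1 gene was higher and 1 lower, *Bak1* and *Pmaip1*, beside 17.3% and 8.86% of all genes. Between genotypes 0 of 12 were apart with PBS, beside 5.27% of all genes. With bleomycin *Bok* was higher in Hps1-/- mice, and *Pmaip1* and *Mcl1* were lower, beside 6.72% and 10.3% of all genes. *Mcl1* was at 1507 CPM in WT and 730 in Hps1-/- mice (log2 ratio -1.05). After the correction 0 of 12 were past 2-fold between the bleomycin libraries, with *Bok* at 0.89, *Pmaip1* at -0.96 and *Mcl1* at -0.97. Of all genes 5.2% were higher and 4.7% lower after it.

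*Gdf15* is also a target of the integrated stress response, and 13 genes of that response were compared. In WT mice 0 were at least 2-fold higher and 1 lower, beside 5.28% and 8.22% of all genes. This was the glutathione-degrading enzyme gene *Chac1*, at 2.41 and 0.842 CPM and named after its values were seen. In Hps1-/- mice 3 were higher and 0 lower, beside 26.2% and 19.6% of all genes. These were the serine synthesis gene *Psat1*, at 15.7 and 53.3 CPM, the pseudokinase gene *Trib3*, at 3.72 and 7.87, and the stress sensor gene *Sesn2*, at 39.3 and 81.3. After the correction 1 was higher, *Psat1* with a log2 ratio of 1.67, and 2 were lower, *Chac1* (-1.07) and *Vegfa* (-1.02). Of all genes 17.3% were higher and 8.86% lower after it. Between the bleomycin libraries 1 of the 13 was lower in Hps1-/- mice and 0 higher, beside 10.3% and 6.72% of all genes, and 12 were within 2-fold. The lower one was *Vegfa*, the vascular growth factor gene, at 39.2 CPM in Hps1-/- and 82.7 in WT mice. After the correction 2 were lower and 0 higher, beside 4.7% and 5.2% of all genes. With PBS none was 2-fold apart, beside 5.27% of all genes. *Gdf15* had a log2 ratio of -0.87 between the bleomycin libraries, and -1.58 corrected, and a link to this response was not tested.

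The annotation sets small limits on single genes. *Cdkn1a* shares 273 of its 3553 exonic bases with a gene on the opposite strand that has no row in the table, and *Bax* shares 192 of 1576 with *Gm45808*, which had 2 to 6 reads. Whether the counting used strand is not given in the sources used here.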

How the data were processed

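RNA of 4 libraries, 1 per group, was sequenced after library preparation with a SMARTER mRNA kit. The authors deposited raw counts per Ensembl gene, in whole reads. The aligner, counter, build and annotation are not given in the sources used here. Of 49315 identifiers, 49056 were in GENCODE M21 (GRCm38), the source of positions, transcript lengths and GC contents. Promoter windows are from RefSeq.

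Library sizes were multiplied by edgeR's TMM factors (version 4.0.16 in R 4.3.3), 1.08 and 1.27 for WT and Hps1-/- mice given PBS and 0.895 and 0.816 for those given bleomycin. Log2 CPM carried a prior count of 2, and ratios were taken over the 14840 genes with at least 1 CPM in at least 1 library, and a gene was called at 2-fold. Intervals are exact Clopper-Pearson at 95% and, with the floor of 3 reads, cover only the error of counting. The correction is a loess fit (span 0.3) on GC content and log2 length over 11133 genes with a mean log2 CPM above 2, applied to 14813. The steps were tested on simulated data.

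The 10 genes, the lists and the correction were chosen with earlier results of these data known. All 10 are named, with *Trp53*, *Mdm4* and *Hps1*. From the other lists were drawn up to 4 genes per direction and comparison with the largest ratios past 2-fold and at least 5 CPM in the higher library, or else up to 2 of the most abundant. Genes named outside this rule are said to be so, or are given to resolve a count of 5 or fewer. Alternatives were DESeq2 1.42.0 size factors, total counts, a prior count of 0.5 or 10, all genes with a read, a filter of 10 counts in every library, the correction and a 1.5-fold threshold.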

Additional observations from a re-analysis of the deposited data

Results flagged for a closer look

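*Gdf15* was higher with bleomycin in WT mice (log2 ratio 0.77) and lower in Hps1-/- mice (-0.32), a difference of -1.09 between the genotypes. As counted, the bleomycin sign turned between genotypes for 1 of the 10 genes, beside 20.8% of all compared genes. After the correction it turned for 4 of the 10, beside 24.9%. The same 4 libraries read the other way give the genotype difference with bleomycin minus that with PBS, and its sign turned between the treatments for 9 of the 10 genes as counted and 7 as corrected for GC content and length, as it did for 55.3% and 48.8% of all compared genes. The 9 include *Zmat3*, whose interval with PBS held 0 and which is left out below. The genotype log2 ratio was positive with PBS and negative with bleomycin for *Cdkn1a* (difference -0.47), *Mdm2* (-1.61), *Trp53inp1* (-1.65) and *Gdf15* (-1.09), and negative with PBS and positive with bleomycin for *Bax* (0.79), *Phlda3* (1.59), *Bbc3* (0.46) and *Aen* (0.56). With 1 library per group these differences were not tested. Corrected for GC content and length, they were -1.06, -1.40, -0.63 and -1.93 for the first 4 genes and -0.18, 0.71, -0.28 and 0.70 for the other 4, and with the correction *Bax* and *Bbc3* were lower in Hps1-/- mice under both treatments.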

How the results depend on the processing

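With total counts in place of TMM factors, the median log2 ratio of the 10 genes was 0.22 for bleomycin in WT mice, -0.078 for bleomycin in Hps1-/- mice, 0.21 and -0.35 for genotype with PBS and with bleomycin, and -0.76 for the difference of the bleomycin ratios. The medians of all genes under that scaling were -0.18, -0.43, 0.06, -0.18 and -0.25. Corrected for GC content and length, the medians of the 10 were 0.29, 0.16, -0.13, -0.33 and -0.23. At a threshold of 1.5-fold, 6 genes were called for bleomycin in WT mice (5 higher, 1 lower), 8 in Hps1-/- mice (5 and 3), and 1 (0 and 1) and 5 (1 and 4) for genotype with PBS and with bleomycin, beside 30.3%, 67.6%, 15.7% and 44.5% of all genes. Among the 40 single ratios, total counts turned the sign of 5, none of them past 2-fold, and the correction that of 9, while DESeq2's size factors, the other prior counts and the other filters turned none. No paired analysis was possible because each group has 1 library, and for the same reason no library could be left out. Depth did not limit these genes, but the spread between animals is unknown.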
